A study of Mus musculus with 10 samples.

Results

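Expression of 9 clock output genes (Dbp, Tef, Hlf, Nfil3, Ciart, Bhlhe40, Bhlhe41, Usp2 and Wee1) was examined in the livers of mice injected with CD95-Ab, an antibody that activates the death receptor CD95 (FAS) on hepatocytes, and in saline-injected controls. The genes were chosen by name, as the D-box binding transcription factors and other regulators known to act downstream of the circadian clock. Earlier results of these data were known when the choice was made. The genes are 9 of the 38922 genes in the deposited tables. Both groups were wild-type male C57BL/6N mice, an inbred strain, aged 6 weeks and kept on a light/dark cycle with free access to chow and water. The treated group (5 mice, replicates 1 to 5) received 0.5 µg/g of body weight of CD95-Ab intraperitoneally and the control group (5 mice, replicates 1 to 5) an equal volume of saline. All livers were collected 6 h after the injection, and 1 library was made from each mouse. The clock hour of injection and of collection is not given in the sources used here.

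Circadian clocks run on a feedback loop in which CLOCK and BMAL1 (the product of Arntl) activate genes that carry an E-box, among them the Per and Cry genes, whose proteins then repress CLOCK and BMAL1. The loop is passed on to liver metabolism largely through output regulators that are themselves rhythmic. DBP, TEF and HLF are the proline and acidic amino acid-rich (PAR) bZIP factors, which activate genes through the D-box, whereas NFIL3 represses through the same element. BHLHE40 and BHLHE41 are repressors that bind the E-box, and CIART represses CLOCK and BMAL1 directly. USP2 is a deubiquitinase and WEE1 is the kinase that holds back entry into mitosis by phosphorylating CDK1.

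Several of these genes are known targets of CLOCK and BMAL1, so the sequence around the E-box motif CACGTG is shown for each member in which the motif was found in its RefSeq promoter (build GRCm38.p6, 250 bases before to 50 bases after the start). A promoter sequence was matched for 7 of the 9 members, with 8 sequences in all because Tef had a pair of starts. The motif is the same on both strands, and it is in capitals below.
Ciart, chr3:95882256-95882358, minus strand: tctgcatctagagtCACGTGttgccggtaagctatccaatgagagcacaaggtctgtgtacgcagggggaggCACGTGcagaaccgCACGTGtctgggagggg
Bhlhe41, chr6:145865562-145865613, minus strand: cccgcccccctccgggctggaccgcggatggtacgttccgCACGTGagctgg
Tef, upstream start, chr15:81802534-81802563, plus strand: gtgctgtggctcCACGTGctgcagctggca
Tef, downstream start, chr15:81811264-81811293, plus strand: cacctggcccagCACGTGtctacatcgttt
Ciart carried 3 copies, which begin 116, 58 and 44 bases before its start, and at least 3 copies were found in 29 of 32851 mouse promoters of the same length (0.0883%). Bhlhe41 carried 1 copy 153 bases before its start. Each of the Tef starts had 1 copy, 127 and 138 bases upstream of that RefSeq start. Both copies lie inside the annotated Tef gene, which begins at 81802421. An E-box was found in 7.15% of all these promoters. The letters CACGTG did not occur in the windows of Dbp, Usp2, Hlf and Nfil3. The D-box letters searched (TTATGTAA or TTACGTAA, on either strand) were not in the window of any of the 7 members, and were in 1.06% of all promoters.

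Expression was compared with edgeR's quasi-likelihood test on 13719 genes, with p-values adjusted over all of them by the Benjamini-Hochberg method (FDR) and a threshold of 0.05. Counts are given as CPM, which are counts scaled to an adjusted library total of 1000000. Deposited totals were between 25965699 and 62097636 counts in saline-injected mice and between 27480796 and 44962196 in mice injected with CD95-Ab, so 3 counts correspond to between 0.0483 and 0.116 CPM of the unadjusted totals. No mice of a group held the same counts, since chi-square per degree of freedom was 41.0 to 575 over the 20 pairs of mice of 1 group.

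Of the 9 members, 4 were lower after CD95-Ab (Dbp, Tef, Hlf and Usp2), 2 were higher (Nfil3 and Bhlhe40), and Ciart, Bhlhe41 and Wee1 did not pass the test. Among all tested genes 22.0% were lower and 25.4% were higher at the same threshold. A decrease of at least 2 on the log2 scale was found for all 4 lower members, that is 4 of the 9. Among the 13719 tested genes 3015 were lower, and 152 of these (1.11% of tested genes) reached that decrease. Neither of the higher members reached an increase of 2. The groups did not overlap for any of these 6 members and overlapped for Ciart, Bhlhe41 and Wee1. Among tested genes they did not overlap for 14.7% with CD95-Ab lower and for 18.6% with CD95-Ab higher. The 6 members passed the test on the same values, so the lack of overlap largely follows from that and is not a separate result. The share without overlap among the genes that passed was not counted. The median log2 fold change of all tested genes was 0.01.

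**Figure D1:**
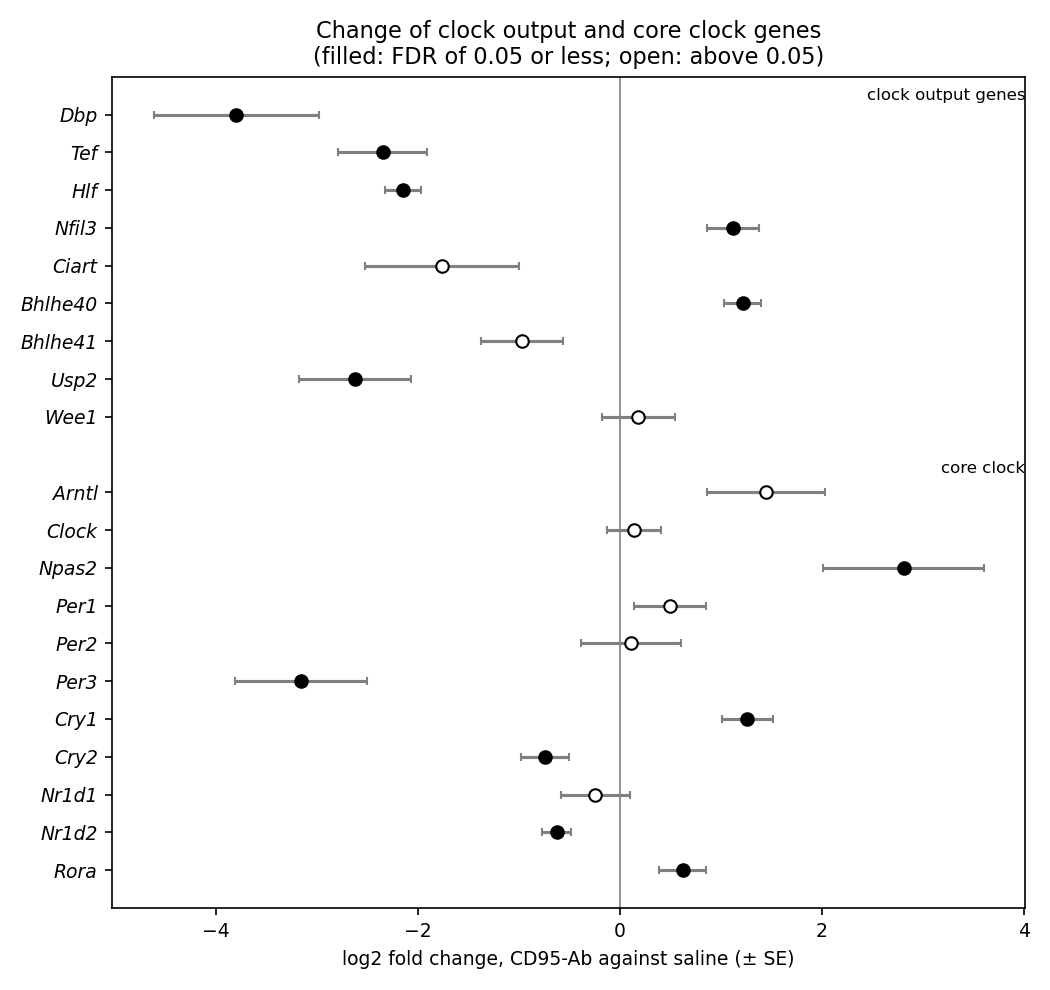
Log2 fold change of the 9 clock output genes and 11 core clock genes, CD95-Ab against saline (5 mice per group, x axis); bars are ± SE, and filled points have an FDR of 0.05 or less. Dbp at -3.80 lies furthest to the left, and Nfil3 and Bhlhe40 are the filled output genes to the right of 0.

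Levels can be compared between genes only per length, and for this the deposited FPKM were used. In saline-injected livers the most abundant member was Bhlhe40 with 74.5 ± 9.73 FPKM (SD, n = 5), followed by Dbp with 53.2 ± 19.2 and Tef with 42.7 ± 8.73. Ciart (12.7 ± 11.2 FPKM), Nfil3 (9.16 ± 1.83), Hlf (8.77 ± 2.24) and Usp2 (6.68 ± 2.53) formed the middle, and Wee1 (1.33 ± 0.54) and Bhlhe41 (1.01 ± 0.50) were lowest. The only neighbours in this order whose ranges were apart were Tef above Ciart and Usp2 above Wee1. All the others overlapped.

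After CD95-Ab the order was led by Bhlhe40 with 163 ± 31.3 FPKM (SD, n = 5) and then Nfil3 with 18.8 ± 5.56. Tef (7.93 ± 7.84 FPKM) and Dbp (4.88 ± 8.03) came behind Nfil3, and Ciart followed with 4.404 ± 4.56. Hlf was at 2.04 ± 0.72 FPKM, Wee1 at 1.46 ± 0.97, Usp2 at 1.23 ± 1.42 and Bhlhe41 at 0.53 ± 0.22. Only Bhlhe40 and Nfil3 were neighbours with separate ranges. Replicate 1 was the highest mouse of this group for Dbp, Tef, Ciart and Usp2, whose SDs were close to their means or above them.

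**Figure D2:**
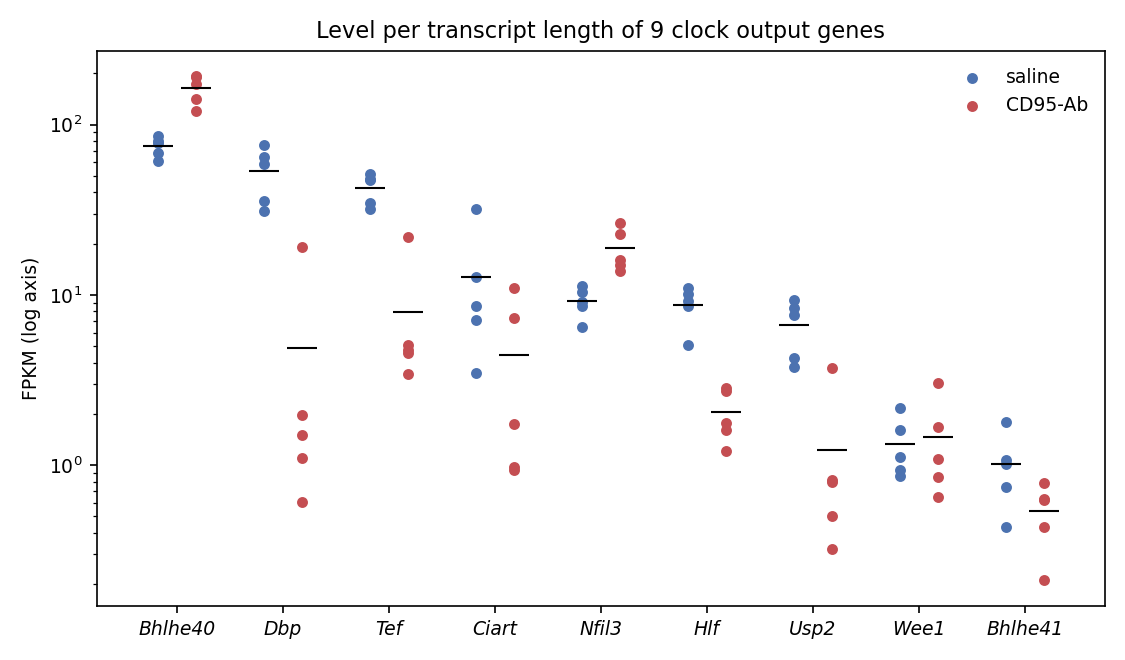
FPKM of the 9 genes in each mouse (log y axis), in order of their mean level in saline-injected controls; points are mice and bars are group means of 5 mice. Dbp and Tef lie above Nfil3 in saline and their means lie below it after CD95-Ab, and Bhlhe40 is the highest gene in both groups.

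DBP is the founding PAR bZIP factor and one of the most strongly rhythmic transcripts of the liver. Its gene (ENSMUSG00000059824) lies on chromosome 7 from 45705088 to 45710203 (GRCm38, plus strand). Dbp was at 70.7, 68.5, 43.7, 42.9 and 130.1 CPM in saline-injected replicates 1 to 5, and at 19.1, 1.24, 2.47, 2.10 and 0.686 CPM in CD95-Ab replicates 1 to 5. All treated livers were below all controls, and CD95-Ab replicate 1 was well above the other treated mice. The log2 fold change was -3.80 (SE 0.82, FDR 0.00251), and 0.117% of tested genes had one as low or lower. Without CD95-Ab replicate 1 it was -5.49 (FDR 1.03e-05).

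Dbp overlaps Sphk2, a sphingosine kinase gene on the other strand, with which it shares 539 of its 2993 exonic bases. Sphk2 went from 35.6 ± 6.47 to 11.3 ± 0.84 CPM (SD, n = 5; log2 fold change -1.65, FDR 3.29e-06). The sources used here do not say whether the counting used strand, and the part of the shared bases in the Dbp values was not tested.

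TEF is the paralog first described in the pituitary, and it binds the same D-box as DBP. Tef (ENSMUSG00000022389) lies on chromosome 15 from 81802421 to 81826863 on the plus strand. It was measured at 156, 139.5, 119, 109.7 and 178 CPM in saline-injected replicates 1 to 5, and at 71.5, 12.9, 20.3, 18.5 and 14.5 CPM in CD95-Ab replicates 1 to 5. The groups did not overlap, and again CD95-Ab replicate 1 stood above the rest of its group. The log2 fold change of Tef was -2.35 (SE 0.44, FDR 0.00106), a value as low or lower being found for 0.663% of tested genes. Without CD95-Ab replicate 1 it was -3.09 (FDR 1.75e-06).

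HLF, known also as the partner of a leukaemic fusion protein, is the third PAR bZIP factor. Hlf (ENSMUSG00000003949) lies on chromosome 11 from 90336536 to 90390895 on the minus strand and overlaps no other annotated gene. In saline-injected replicates 1 to 5 it was at 41.5, 36.6, 46.3, 40.2 and 30.5 CPM, and in CD95-Ab replicates 1 to 5 at 10.04, 6.66, 8.04, 7.27 and 12.0 CPM. Its mice were the most alike of the lower members, and here replicate 5, not replicate 1, was the highest treated mouse. Hlf fell by 2.14 on the log2 scale (log2 fold change -2.14, SE 0.18, FDR 3.31e-06), and 0.824% of tested genes had a fold change as low or lower.

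NFIL3, the repressor that competes with the PAR bZIP factors for the D-box, is also induced by cytokines in immune cells. Nfil3 (ENSMUSG00000056749) lies on chromosome 13 from 52967209 to 52981073 on the minus strand. It was at 11.4, 14.9, 17.2, 22.3 and 23.5 CPM in saline-injected replicates 1 to 5, and at 23.8, 44.9, 58.5, 37.5 and 29.2 CPM in CD95-Ab replicates 1 to 5. All treated mice were above all controls, but CD95-Ab replicate 1 exceeded saline replicate 5 by little. The log2 fold change was 1.12 (SE 0.26, FDR 0.00387), and 14.8% of tested genes had one as high or higher.

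**Figure D3:**
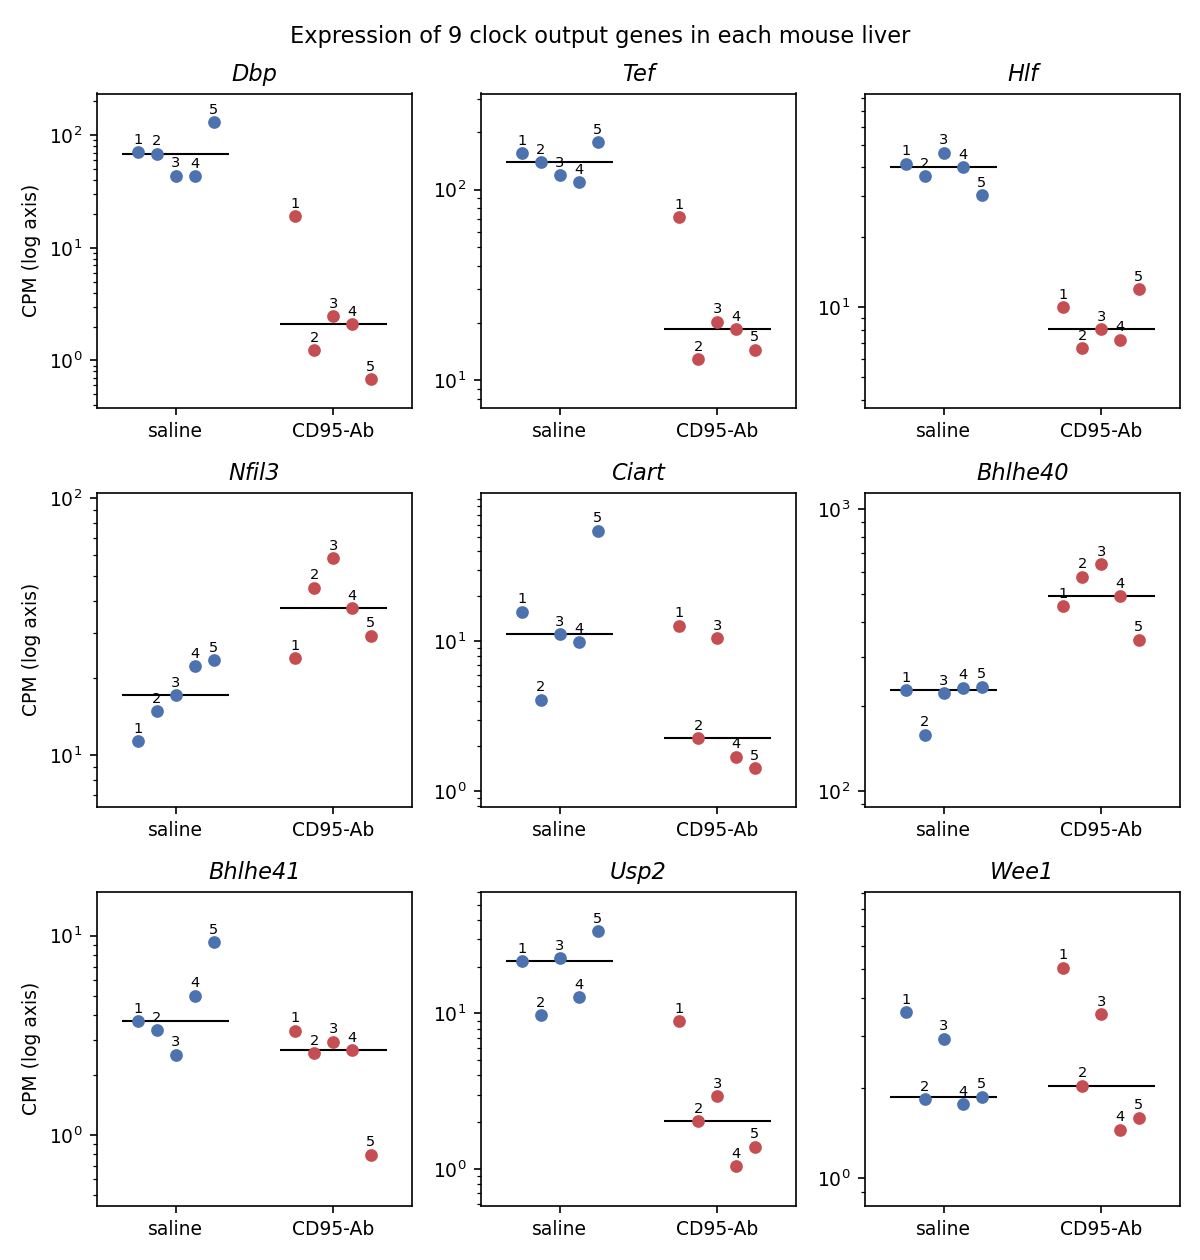
CPM of each of the 9 genes in each mouse (log y axes); numbers are replicate numbers and bars are group medians of 5 mice. The groups are apart for Dbp, Tef, Hlf, Usp2, Nfil3 and Bhlhe40 and overlap for Ciart, Bhlhe41 and Wee1; CD95-Ab replicate 1 is the highest treated mouse for Dbp (19.1 CPM), Tef (71.5 CPM) and Usp2 (8.89 CPM).

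Summed over Dbp, Tef and Hlf, the activators of the D-box were at 72.3 to 128.7 FPKM in saline-injected mice, and at 43.9 FPKM in CD95-Ab replicate 1 and 6.12 to 8.81 FPKM in the other 4 treated mice. Divided by the FPKM of Nfil3, this sum gave 19.4, 13.4, 8.98, 6.40 and 12.4 in saline-injected replicates 1 to 5. In CD95-Ab replicates 1 to 5 the ratio was 3.20, 0.269, 0.333, 0.461 and 0.540. The summed FPKM of the activators was above that of the repressor in every control and in CD95-Ab replicate 1, and below it in the other 4 treated livers.

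Differences between members were tested on the ratio of 2 genes within each mouse, on the log2(CPM + 0.1) scale, with a two-sided exact permutation test over mice and adjustment over the 5 pairs compared. A p-value of 0.00794 is the smallest that 5 mice against 5 can give. The ratio of Nfil3 to Dbp was -2.63, -2.20, -1.34, -0.94 and -2.47 in saline-injected replicates 1 to 5, and 0.32, 5.07, 4.51, 4.09 and 5.22 in CD95-Ab replicates 1 to 5. The ratio was higher in every treated mouse than in every control, and the difference was 5.76 (SE 0.96, exact p = 0.00794, adjusted p = 0.0132). Dbp was lower and Nfil3 higher in every treated mouse than in every control, so this separation and its p-value were fixed in advance. They add no test beyond the results of the single genes, although the pair was counted in the adjustment. Dbp also fell by more than Tef, with a ratio that changed by -2.01 (SE 0.41, exact p = 0.00794, adjusted p = 0.0132) and did not overlap between groups.

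The ratio of Dbp to Hlf changed by -2.51 (SE 0.87, exact p = 0.0397, adjusted p = 0.0496), with groups that overlapped because CD95-Ab replicate 1 had a ratio of 0.92, inside the saline range of -0.08 to 2.09. Leaving out any 1 mouse other than CD95-Ab replicate 1 gave an exact p of 0.0635 to 0.0794. For Tef against Hlf the change was -0.50 (SE 0.47, exact p = 0.294, adjusted p = 0.294), so a difference between these paralogs in their change was not shown, and likeness was not shown either. Without CD95-Ab replicate 1 it was -0.87 (exact p = 0.0159, the smallest that 5 mice against 4 can give).

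**Figure D4:**
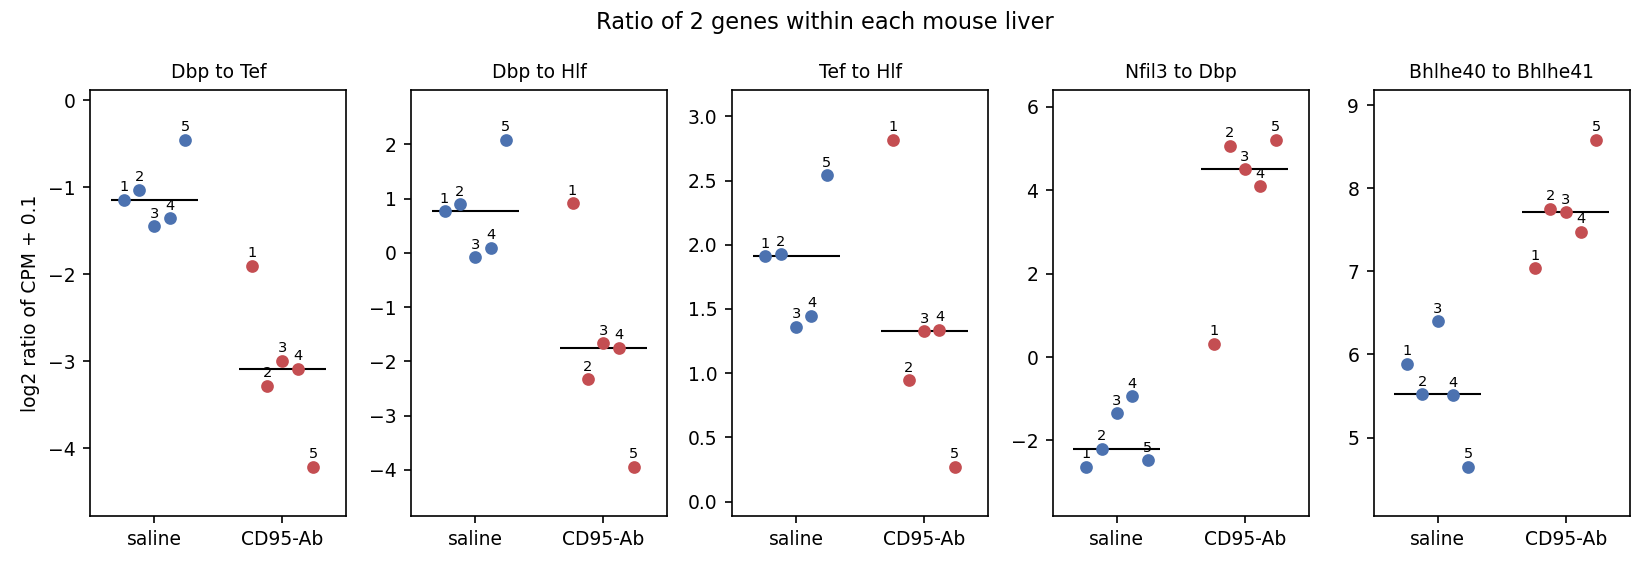
Log2 ratio of 2 genes, each as CPM + 0.1, within each mouse for the 5 pairs compared (y axes differ); numbers are replicate numbers and bars are group medians of 5 mice. The groups are apart for Dbp to Tef, Nfil3 to Dbp and Bhlhe40 to Bhlhe41, whereas CD95-Ab replicate 1 lies within or above the saline mice for Dbp to Hlf (0.92) and Tef to Hlf (2.82).

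Bhlhe40 and Bhlhe41, the paralogous E-box repressors, did not move together. Bhlhe40 (ENSMUSG00000030103, chromosome 6 from 108660629 to 108666925, plus strand) was at 228, 159, 223, 233 and 235 CPM in saline-injected replicates 1 to 5. In CD95-Ab replicates 1 to 5 it was at 452, 578, 638, 492 and 345 CPM. Every treated liver was above every control, and saline replicate 2 was the lowest of all. The log2 fold change was 1.22 (SE 0.18, FDR 0.00023).

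Bhlhe41 (ENSMUSG00000030256, chromosome 6 from 145858243 to 145865558, minus strand) was scarce, at 3.74, 3.35, 2.54, 5.0 and 9.25 CPM in saline-injected replicates 1 to 5 and 3.34, 2.58, 2.95, 2.66 and 0.797 CPM in CD95-Ab replicates 1 to 5. The groups overlapped, with saline replicate 5 the highest mouse and CD95-Ab replicate 5 the lowest. Its log2 fold change of -0.97 (SE 0.41) did not pass the test (FDR 0.0673), although it did with edgeR's likelihood ratio test (FDR 0.0433), with DESeq2 (FDR 0.0375) and with unadjusted totals (FDR 0.0475). Without saline replicate 3 the value was -1.13 (FDR 0.0399), and without saline replicate 5, the highest mouse, it was -0.58 (FDR 0.207). It shares 1280 of its 6720 exonic bases with Gm43909 on the other strand. The ratio of Bhlhe40 to Bhlhe41 rose by 2.12 on the log2 scale (SE 0.38, exact p = 0.00794, adjusted p = 0.0132), with no overlap between groups.

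Ciart (ENSMUSG00000038550, chromosome 3 from 95878503 to 95882251, minus strand), the member with 3 E-boxes in its promoter window, varied most among the controls. It was at 15.8, 4.09, 11.2, 9.97 and 54.9 CPM in saline-injected replicates 1 to 5, and at 12.7, 2.26, 10.5, 1.70 and 1.42 CPM in CD95-Ab replicates 1 to 5. Saline replicate 5 was far above all other mice, and CD95-Ab replicates 1 and 3 lay within the saline range. The log2 fold change of -1.76 (SE 0.77, FDR 0.0773) did not pass the test. It was -0.86 (FDR 0.308) without saline replicate 5, and it passed at -2.30 (FDR 0.0397) without CD95-Ab replicate 1 and at -2.02 (FDR 0.0431) without saline replicate 2.

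Usp2 (ENSMUSG00000032010) lies on chromosome 9 from 44067021 to 44095627 on the plus strand. In saline-injected replicates 1 to 5 it was at 21.6, 9.72, 22.6, 12.7 and 33.7 CPM, and in CD95-Ab replicates 1 to 5 at 8.89, 2.04, 2.95, 1.05 and 1.39 CPM. The groups were apart by a small margin, set by saline replicate 2 and CD95-Ab replicate 1. Usp2 had a log2 fold change of -2.62 (SE 0.55, FDR 0.00219), and 0.467% of tested genes had one as low or lower. Without CD95-Ab replicate 1 it was -3.44 (FDR 9.26e-05).

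Wee1 (ENSMUSG00000031016, chromosome 7 from 110122046 to 110143286, plus strand) was at 3.60, 1.84, 2.93, 1.77 and 1.87 CPM in saline-injected replicates 1 to 5 and 5.07, 2.04, 3.54, 1.45 and 1.59 CPM in CD95-Ab replicates 1 to 5. The groups overlapped, with CD95-Ab replicate 1 the highest mouse, and the log2 fold change of 0.18 (SE 0.36, FDR 0.701) became -0.17 without CD95-Ab replicate 1. Of 9 listed genes that act with WEE1 at the entry into mitosis, 7 were tested, none was lower and 1 was higher, the phosphatase gene Cdc25b (log2 fold change 1.25, FDR 0.0195). At an unadjusted p below 0.05, 1 of them was lower in edgeR and 1 in DESeq2, where the count at the FDR threshold was also 0. Their median log2 fold change was 0.04. Among all tested genes 22.0% were lower and 25.4% higher at the FDR threshold, and the counts were not tested against these shares. Wee2, the oocyte paralog of Wee1, was at 0 counts in every control and, like Cdc25c, was too scarce to be tested.

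The members also differed in how much mice of 1 group varied. The SD of log2 CPM among mice injected with CD95-Ab was 1.75 for Dbp, 1.47 for Ciart, 1.16 for Usp2 and 0.99 for Tef, compared with a median of 0.31 over all tested genes. These values were at or above those of 97.9% of tested genes or more. Hlf (0.34) and Bhlhe40 (0.34) were near that median. For Dbp, Tef and Usp2 the SD rests in large part on 1 mouse, CD95-Ab replicate 1. Its log2 CPM was 4.26 for Dbp, beside -0.35 to 1.36 in the other treated mice. For Tef it was 6.16, beside 3.70 to 4.35, and for Usp2 3.17, beside 0.20 to 1.61. The SDs without this mouse were not computed. In saline-injected mice Ciart had an SD of 1.35, Usp2 0.71, Bhlhe41 0.70 and Dbp 0.65, beside a median of 0.27, while Tef (0.28), Bhlhe40 (0.24) and Hlf (0.23) were near that median.

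In the core clock itself, 3 of 11 genes were lower after CD95-Ab and 3 were higher, with a median log2 fold change of 0.14, beside 22.0% lower and 25.4% higher among all tested genes. Both counts are near these shares. Per3, a member of the PERIOD repressors that is a strong clock output in liver, fell furthest. It was at 24.4, 22.1, 13.3, 12.2 and 25.96 CPM in saline-injected replicates 1 to 5 and at 7.57, 0.637, 0.995, 1.05 and 0.709 CPM in CD95-Ab replicates 1 to 5 (log2 fold change -3.16, FDR 0.00191). As for Dbp, CD95-Ab replicate 1 was the highest of its group, and without it the log2 fold change of Per3 was -4.55. Cry2 (-0.74, FDR 0.0217), a repressor of CLOCK and BMAL1, and Nr1d2 (-0.63, FDR 0.00359), a repressor of Arntl, were the other lower genes.

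Higher core clock genes were Npas2, a paralog of Clock, with a log2 fold change of 2.81 (FDR 0.012), Cry1 with 1.26 (FDR 0.00147) and Rora with 0.62 (FDR 0.0412). The call of Rora was lost in 12 of 18 other fits. With 1 mouse left out its value was 0.47 to 0.77, and it passed only without CD95-Ab replicate 1 (FDR 0.0398) or CD95-Ab replicate 4 (FDR 0.00187). The call of Npas2 was lost in 1 of 17 other fits, on FPKM (log2 fold change 1.15, FDR 0.0784). Npas2 was scarce, at 0.141 to 0.423 CPM in controls, and at 0.032 CPM (1 count) in CD95-Ab replicate 1 and 0.756 to 3.54 CPM in the other treated mice.

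Arntl was at 1.58, 3.20, 2.99, 3.502 and 1.39 CPM in saline-injected replicates 1 to 5 and at 0.61, 9.62, 4.14, 5.61 and 14.1 CPM in CD95-Ab replicates 1 to 5. CD95-Ab replicate 1 was below all controls and the other 4 treated mice were above them all. Its log2 fold change of 1.45 did not pass the test (FDR 0.0605). It passed with edgeR's likelihood ratio test (FDR 0.0317), with DESeq2 (FDR 0.0233) and without CD95-Ab replicate 1 (1.74, FDR 0.00414). Clock (0.14), Per1 (0.49), Per2 (0.11) and Nr1d1 (-0.24) did not pass either, although Per1 did without saline replicate 5 (0.88, FDR 0.0274).

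**Figure D5:**
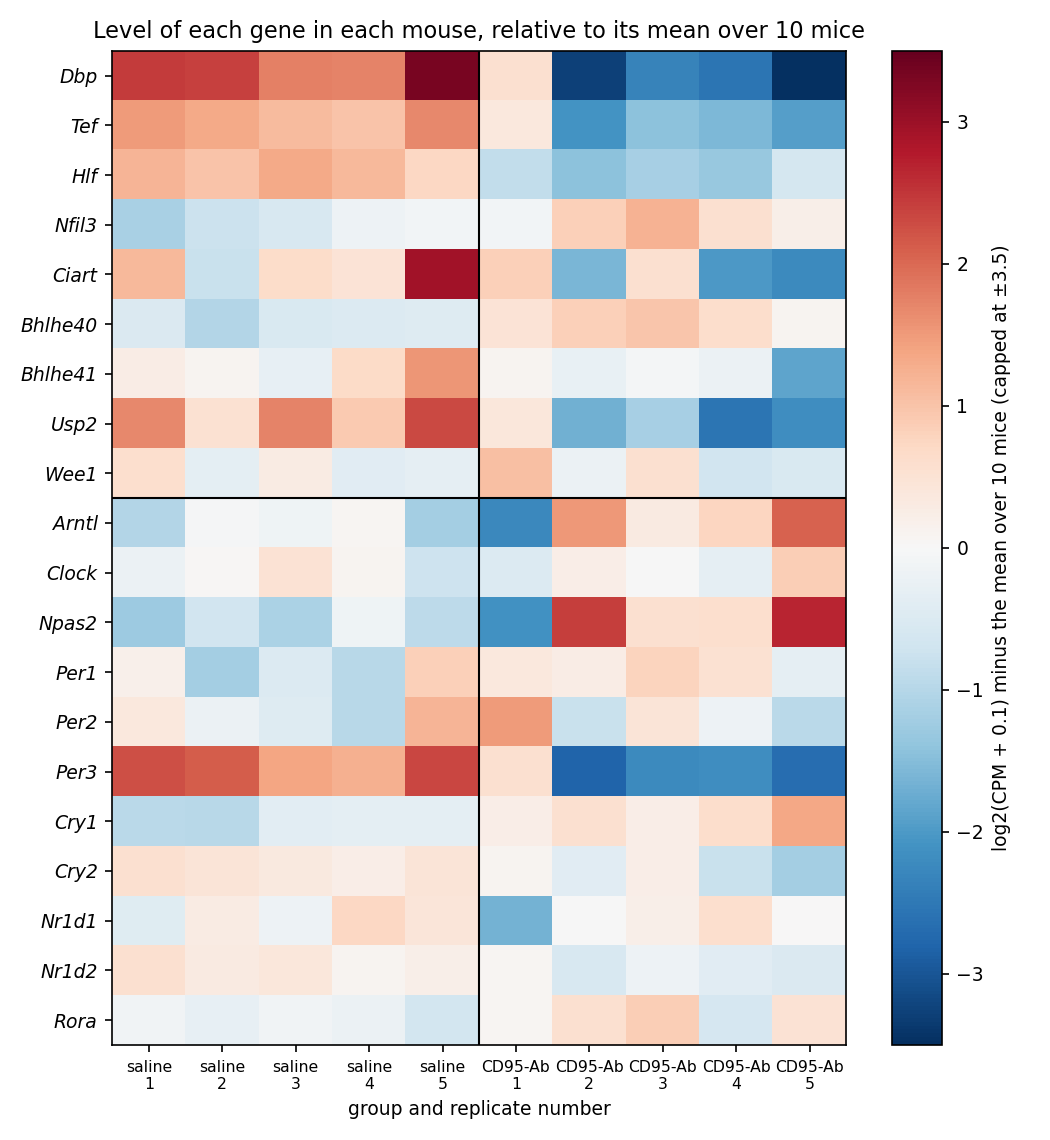
Level of each clock output gene (above the line) and core clock gene (below it) in each mouse, as log2(CPM + 0.1) minus the mean over 10 mice; red is above and blue below that mean, and colours are capped. In CD95-Ab replicate 1, Dbp, Tef and Per3 lie between the controls and the other treated mice, while Arntl (0.61 CPM) and Npas2 (0.032 CPM) are below all others.

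Within groups, mice high in Dbp were low in Arntl at the ends of the order. Among controls Dbp ran from replicate 5 (highest) through 1, 2 and 3 to 4 (lowest), and so did Tef, Per2 and Per3, whereas replicate 4 was highest and replicate 5 lowest in Arntl. Among treated mice Dbp ran from replicate 1 through 3, 4 and 2 to 5, as did Per2 and Bhlhe41, and Arntl had the exact reverse. The orders are over 5 mice and were noticed in these data. Clock hour is not recorded per mouse in the sources used here, so its part in the spread was not tested.

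PAR bZIP factors are known to drive genes of detoxification and bile acid metabolism, and 9 genes described as their targets were followed. This list was chosen with earlier results of these data known. After CD95-Ab 6 of the 9 were lower and none was higher in edgeR, with a median log2 fold change of -1.68. Among all tested genes 22.0% were lower and 25.4% were higher. The count of higher targets was 0 also in DESeq2 and at an unadjusted p below 0.05. Cyp7a1, the rate-limiting enzyme of bile acid synthesis, was at 39.4, 69.8, 44.9, 56.2 and 39.8 CPM in saline-injected replicates 1 to 5 and at 1.76, 0.382, 0.478, 1.41 and 1.53 CPM in CD95-Ab replicates 1 to 5 (log2 fold change -5.46, FDR 1.38e-06). All treated livers were far below the controls, and CD95-Ab replicate 1 was here close to replicates 4 and 5.

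Nr1i3, which encodes the xenobiotic receptor CAR, fell from 191 ± 33.96 to 23.99 ± 12.9 CPM (SD, n = 5; log2 fold change -2.99, FDR 2.06e-05). Por, the electron donor of the cytochromes P450 (-0.87, FDR 0.0112), and Aadac, an esterase (-0.64, FDR 0.00655), fell less. Cyp2a4 (-5.82, FDR 0.000506) and Cyp2a5 (-1.68, FDR 0.00273) are close paralogs between which reads can be split, so each of their values is uncertain. Cyp2b10 had a log2 fold change of -1.90 that did not pass the test (FDR 0.145), with 8.32 CPM in CD95-Ab replicate 3 and 0.128 to 0.731 CPM in the other treated mice, and without that mouse it was -4.20 (FDR 0.00205). It also passed on FPKM with limma (-2.58, FDR 0.0285). Cyp2c50 (-0.48, FDR 0.223) and Alas1 (-0.21, FDR 0.668) did not pass.

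Other rhythmic liver transcripts were lower in 2 cases and higher in 3 of 7, beside the same 22.0% and 25.4% of all tested genes. Cdkn1a, which encodes the cell cycle inhibitor p21 and is also a target of p53, rose from 11.3 ± 9.77 to 103 ± 66.6 CPM (SD, n = 5; log2 fold change 3.19, FDR 0.00503). Rgs16, a regulator of G protein signalling that is rhythmic in liver, went from 300.4 ± 94.8 to 48.6 ± 30.8 CPM (log2 fold change -2.63, FDR 0.000479).

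For each member the tested gene with the most similar pattern was found as the one with the smallest root mean square difference of centred log2 CPM over the 10 mice. The median over all genes gives the scale only, since the smallest difference lies below it in any data. Dbp was closest to Per3, with a difference of 0.612 on the log2 scale compared with a median of 2.64 over all genes, and Usp2 was closest to Tef (0.528, median 1.70). Tef was closest to Cys1 (0.507, median 1.51), Hlf to the carbonic anhydrase gene Car5a (0.227, median 1.15) and Bhlhe40 to the superoxide dismutase gene Sod2 (0.153, median 0.764). The genes nearest to the others were Gm26716 for Nfil3 (0.212), Slc16a5 for Ciart (0.808), Ropn1l for Bhlhe41 (0.402) and Bag2 for Wee1 (0.286). Ciart had the least similar neighbour of all members.

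Markers of other cells moved with the treatment, and their part in the changes of the members was not tested. In whole liver, fewer cells of a type and less RNA per cell cannot be told apart. Of 12 hepatocyte markers 6 were lower and none was higher in edgeR (0 also in DESeq2 and at an unadjusted p below 0.05; median log2 fold change -0.67), and their summed level was 130428 to 149287 CPM in controls and 66952 to 108975 CPM after CD95-Ab. All 7 tested of 8 neutrophil markers were higher (median 6.02), with sums of 4.31 to 10.99 CPM and 113 to 447 CPM. CD95-Ab replicate 1 had the lowest neutrophil sum (113 CPM) and the lowest erythroid sum (1064 CPM, beside 5355 to 33999 CPM in the other treated mice and 135 to 324 CPM in controls) of its group, and a hepatocyte sum (89127 CPM) within the range of the others. All 6 erythroid markers were higher, as were 7 of 8 lymphocyte, 7 of 8 sinusoidal endothelial and 3 of 8 Kupffer cell and macrophage markers. Over all tested genes the shares were 22.0% lower and 25.4% higher. No marker on these lists had a mean of 0 CPM in either group.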

How the data were processed

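Liver RNA from 10 mice was sequenced as paired-end TruSeq libraries (1 mouse per library). The authors assigned reads to genes with RSEM 1.2.19 and deposited expected counts per gene, which are not normalized and hold whole numbers (0 values were not whole, and 0 rows named no gene), so no rounding was needed. The authors also deposited FPKM, which RSEM scales for transcript length and library total. Their methods name a human Gencode release, whereas the identifiers are mouse; the mouse release, genome build and use of strand are not given in the sources used here. Reads matching several genes were shared out by RSEM, so values of overlapping genes and paralogs depend on that step.

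Groups came from the sample titles, which call the mice biological replicates. Identifiers were matched to symbols with GENCODE M21 (GRCm38; 37606 of 38922 matched). Genes were kept by filterByExpr (minimum count 10), scaled by TMM and tested with edgeR 4.0.16 (R 4.3.3), group being the only term. The SE is the log2 fold change over the square root of F. Python 3.11.15 with scipy 1.17.1 and pandas 2.3.3 gave the ratios and motif searches. The code was tested on simulated data. The alternatives were DESeq2 1.42.0, limma 3.58.1 on log2(FPKM + 0.1), the likelihood ratio test, RLE factors, unadjusted totals, other filters, an FDR of 0.01, a pseudocount of 1 CPM, a replicate block and each mouse left out. The members and all gene lists were chosen with earlier results of these data known. All members, listed core clock genes and targets could be named, and of each remaining list the 2 past the threshold with the largest change, along with the gene nearest to each member. Protein sequences were not used here, and 1 further core clock gene is not reported here.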

Additional observations from a re-analysis of the deposited data

Results flagged for a closer look

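Among 40 groups of 5 mice (9 clock output and 11 core clock genes in 2 groups), 7 held a mouse that stood apart from its group. For normally distributed values, chance alone flags about 1 in 20 groups. The measure is the gap to the nearest mouse as a share of the range of the group, taken on CPM. CPM need not be normally distributed and flags on log2 CPM can differ, so an excess of flags over chance was not shown. CD95-Ab replicate 1 was the highest treated mouse in 4 of the 7, and why it stood apart was not tested. These genes cannot be counted as independent, since they share this mouse and are known parts or outputs of 1 clock. They were Dbp (0.903; 19.1 CPM beside 0.686 to 2.47 in the other treated mice), Tef (0.873; 71.5 CPM beside 12.9 to 20.3), Usp2 (0.758; 8.89 CPM beside 1.05 to 2.95) and Per3 (0.941; 7.57 CPM beside 0.637 to 1.05). Saline replicate 5 was the highest control for Ciart (0.77; 54.9 CPM beside 4.09 to 15.8). Saline replicate 2 was the lowest control for Bhlhe40 (0.84; 159 CPM beside 223 to 235). CD95-Ab replicate 5 was the highest treated mouse for Cry1 (0.746; 10.7 CPM beside 4.81 to 6.30), the gene of a repressor of CLOCK and BMAL1.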

How the results depend on the processing

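Of 162 member results (9 genes under 18 other fits), 154 kept their direction and their side of the FDR threshold. Dbp ranged from -5.49 to -3.45, Usp2 from -3.44 to -2.34, Tef from -3.09 to -2.17, Hlf from -2.28 to -2.06, Nfil3 from 0.92 to 1.25 and Bhlhe40 from 1.11 to 1.33 on the log2 scale, each with an FDR under the threshold in all 18. The likelihood ratio test passed Ciart (-1.75) and Bhlhe41 (-0.96), and Bhlhe41 also passed with unadjusted totals (-0.99) and DESeq2 (-0.98). With each mouse left out, Ciart ranged from -2.30 to -0.86, Bhlhe41 from -1.13 to -0.58 and Wee1 from -0.17 to 0.37, the ratio of Dbp to Hlf from -3.17 to -1.96 and that of Tef to Hlf from -0.87 to -0.23. The cause of these changes was not tested, except that 5 mice against 4 cannot give an exact p below 0.0159. Among other named genes, 3 that did not pass changed sign: Clock (-0.12 to 0.29 with each mouse left out, turning to -0.0013 and -0.12 without saline replicate 5 and CD95-Ab replicate 5), Per2 (-0.46 to 0.54, turning to -0.019, -0.10 and -0.46 without saline replicate 3, saline replicate 4 and CD95-Ab replicate 1, and to -0.061 on FPKM) and Alas1 (-0.42 to 0.0086, turning without saline replicate 5); none of them passed the test in any of these. The list counts without CD95-Ab replicate 1 or saline replicate 5 were chosen after seeing the data: 3 core clock genes were lower in both, 4 and 3 were higher, and 6 targets were lower in both.

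The sources used here do not say what the replicate numbers mark, and pairing of the mice by number was not shown. Same-numbered deviations correlated at 0.257, 0.0875, 0.13, -0.017 and -0.27 for replicates 1 to 5. Mean correlations with the other numbers were -0.035, -0.0065, -0.0185, 0.013 and 0.015. So few correlations cannot decide whether mice were paired. With the replicate block 4 members were lower and 2 higher as before (Dbp -4.66), Rora lost its call (0.56, FDR 0.0827) and Cyp2b10 gained one (-2.99, FDR 0.0137). Npas2 rests on few counts, with 1 in CD95-Ab replicate 1.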
